A study of Homo sapiens with 6 samples.

Results

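The human genes of the classical protein tyrosine phosphatases were examined in A2058, a human line derived from a melanoma metastasis, after vitamin C treatment. The 36 genes were chosen by symbol, 17 for non-receptor and 19 for receptor-type enzymes, out of 60675 genes in the count table, and each matched 1 identifier. RNA-seq counts were available for 3 wells that received vitamin C (0.1 mM, 48 h) and for 3 control wells cultured without it. All wells hold the same cell line, nothing in the sources gives them separate passages or days, and the p-values therefore measure the spread between wells, which may be technical. The labels state 100 µM for vitamin C wells, but a protocol field names 50 µM sodium ascorbate, and 100 µM is used here. Of the 36 genes, 31 had enough counts to be tested.

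Protein tyrosine phosphatases remove phosphate from tyrosine residues and so oppose tyrosine kinases, with a catalytic cysteine in a signature loop shared by the family. The non-receptor enzymes carry targeting domains such as SH2, FERM, PDZ or PEST segments. The receptor-type enzymes span the membrane, and many bind matrix, adhesion molecules or soluble ligands. In melanoma and melanocytes this family is best known through PTPN11 (SHP2), which passes signals from receptor tyrosine kinases to the RAS and ERK pathway. Several other members are known from single lineages: PTPRC (CD45), PTPN6 (SHP1), PTPN22 and PTPN7 from blood cells, PTPRB from endothelium, and PTPRZ1 from glia and neural tissue.

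Library totals ran from 20944956 to 32549362 counts in vitamin C wells and from 16248869 to 41884588 in control wells, so that 1 count was worth 0.0304 to 0.0477 CPM in vitamin C wells and 0.024 to 0.0619 CPM in control wells. Levels are CPM, counts scaled to a fixed library total, after TMM scaling, which corrects for differences in library composition. In replicate pairs the chi-square of the counts per degree of freedom was 2.75 to 6.65 within control wells and 3.31 to 11 within vitamin C wells, where both pairs above 10 included replicate 3. All 11 melanocyte markers passed the filter on low counts, and 5 were called higher and 1 lower with vitamin C. This is 54.5% of them, against 11.2% of all genes tested. MLANA had 15.4 ± 0.671 CPM in vitamin C wells and 1.54 ± 0.290 CPM in control wells, and PMEL had 148 ± 13.6 CPM in vitamin C wells and 89.2 ± 6.59 CPM in control wells (SD, n = 3 each). DCT, the marker that was lower, had 1234 ± 48.4 CPM in vitamin C wells and 1515 ± 44.4 CPM in control wells (SD, n = 3 each). MITF, the lineage transcription factor, was at 507 ± 22.7 CPM with vitamin C and 527 ± 10.5 CPM in control wells (SD, n = 3 each) and did not pass the test. In bulk RNA, a change in the number of cells that express a gene and a change in RNA per cell cannot be told apart.

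Vitamin C treatment was followed by higher transcripts of 3 non-receptor phosphatases, PTPN7, PTPN18 and PTPN13, and by lower transcripts of 3 receptor-type phosphatases, PTPRZ1, PTPRF and PTPRB. The change was 4.02-fold for PTPN7, a blood cell phosphatase that binds ERK and p38 MAP kinases, and between 1.12-fold and 1.28-fold for the other genes that rose. PTPRZ1, the receptor for the growth factor pleiotrophin, fell to a fold of 0.647. Across all genes, edgeR's quasi-likelihood test with Benjamini-Hochberg adjustment called 11.2% of 16353 at an adjusted p under 0.05 (13.4% of the protein coding genes), with 6.09% above and 5.09% below the control level. Of the 31 tested phosphatase genes 6 were called (19.4%), and the other 25 did not pass. The difference between these shares was not tested, and the genes were not chosen blind, since the study had picked PTPN7 from these libraries. PTPN7 also passed the filter on low counts only through its vitamin C wells, where it was high. By qRT-PCR the paper also reported higher PTPN7 with vitamin C, at a smaller fold than in its own RNA-seq results. With any control well or vitamin C replicate 1 left out, the test called 4 phosphatase genes, with PTPN13 and PTPRB lost. Over all genes, 1092, 977 and 964 were called without control replicate 1, 2 and 3, against 1829 with all wells. Without vitamin C replicate 1, 2 and 3 the test called 1584, 1136 and 2095.

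**Figure D1:**
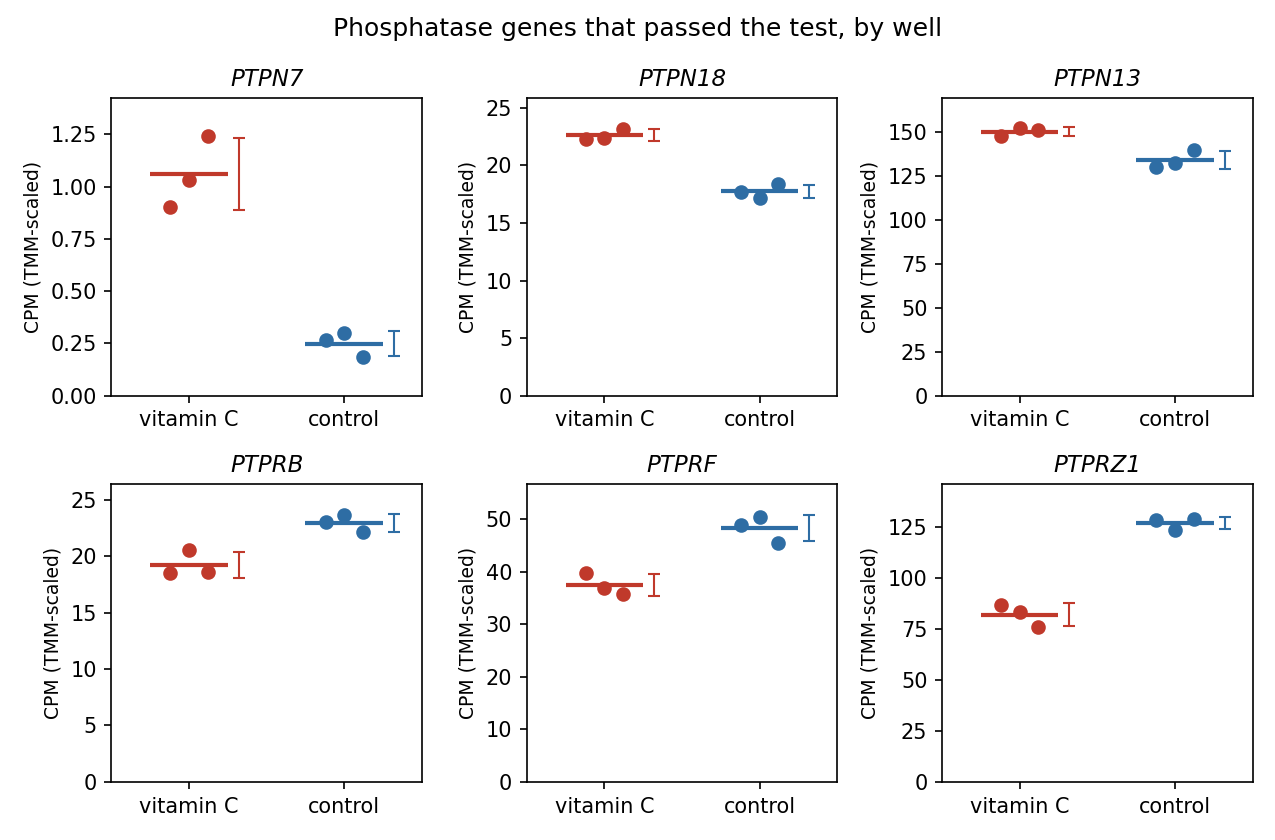
TMM-scaled CPM (y axis, from 0) in each well for the 6 phosphatase genes that passed the test, vitamin C wells in red and control wells in blue. Points are wells, wide lines are means of 3 wells and the bars beside them are SDs. In each panel the 3 vitamin C wells lie apart from the 3 control wells, above for PTPN7, PTPN18 and PTPN13 and below for PTPRB, PTPRF and PTPRZ1.

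The members differed widely in level, which is given per kilobase of exon (RPKM) so that genes of different length can be set side by side. PTPN11 had the highest level, with a mean of 62.7 RPKM in vitamin C wells and 62.6 RPKM in control wells. PTPRJ, an adhesion-linked receptor phosphatase, followed at 24.3 RPKM with vitamin C and 25.3 RPKM in control wells, and the next members lay close behind it. PTPRA, which activates SRC kinases, was at 22.2 RPKM with vitamin C and 23.5 RPKM in control wells, and PTPN1 (PTP1B), which acts on the insulin receptor, at 22.0 RPKM with vitamin C and 21.7 RPKM in control wells. PTPRA shares 12.5% of its exon bases with VPS16 on the same strand, which makes its reads uncertain. In all, 7 members exceeded 10 RPKM in both groups and 14 stayed below 1 RPKM in both. PTPRZ1 and PTPN13 were among the well-expressed members, whereas PTPN7 had only 0.179 RPKM with vitamin C and 0.0422 RPKM in control wells. The largest fold change of the family was thus at a low level.

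**Figure D2:**
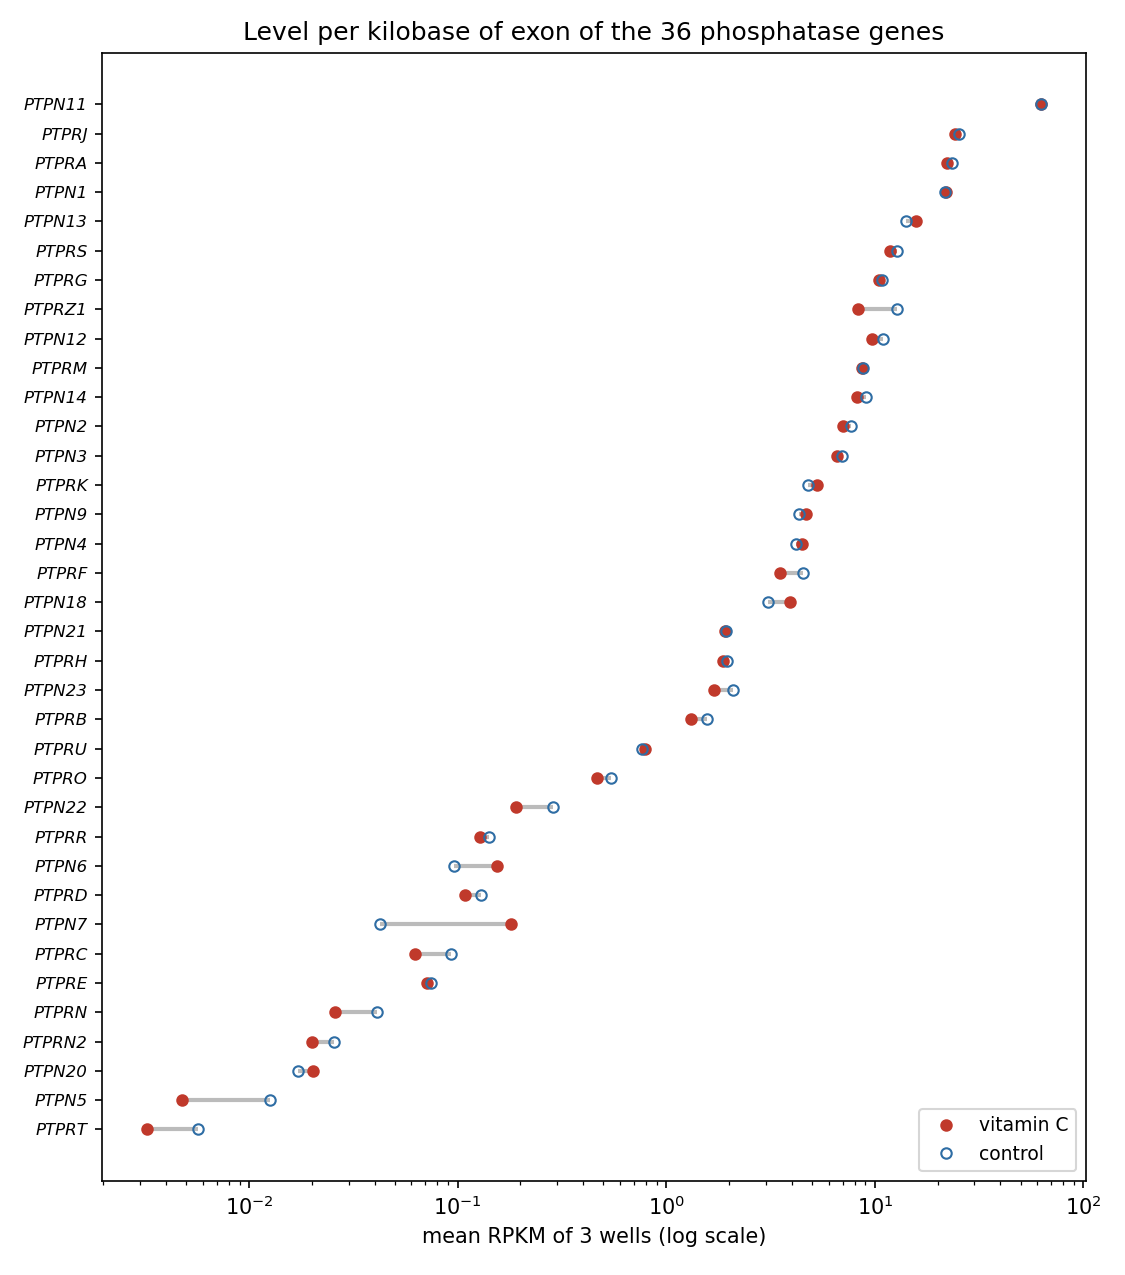
Mean level of 3 wells in RPKM (x axis, log scale) for each of the 36 phosphatase genes (y axis), vitamin C as filled red and control as open blue points joined by a gray line. PTPN11 lies highest, at 62.7 RPKM with vitamin C and 62.6 RPKM in control wells, and the pairs for PTPN7 and PTPRZ1 are the most clearly separated among those that passed the test.

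PTPN7 (ENSG00000143851) occupies bases 202147013 to 202161588 of chromosome 1 (GRCh38, GENCODE 29, minus strand), and no other annotated gene overlaps its exons. RefSeq lists several starts for it, and the counts, which are per gene, do not tell which was used. The study concerns vitamin C as a cofactor of TET enzymes, which act on cytosines in CpG context, so the 250 bases before each start are shown for PTPN7 and, as the member that fell the most, for PTPRZ1, with CG in capitals (RefSeq, GRCh38.p14, 5′ to 3′ on the gene's own strand). CG reads the same on both strands. The RefSeq starts differ from the GENCODE bounds used here. The PTPN7 windows lie inside the GENCODE span of the gene, as does the PTPRF window counted below for its own gene. The PTPRZ1 window runs past the GENCODE start of PTPRZ1. No methylation was measured in these files, and nothing about it follows from the letters.
PTPN7 chr1:202160603-202160852 (minus strand): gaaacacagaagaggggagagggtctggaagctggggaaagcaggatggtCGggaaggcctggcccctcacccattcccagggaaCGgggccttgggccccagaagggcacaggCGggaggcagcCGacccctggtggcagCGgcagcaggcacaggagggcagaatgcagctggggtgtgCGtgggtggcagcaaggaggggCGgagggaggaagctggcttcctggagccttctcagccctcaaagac
PTPN7 chr1:202159990-202160239 (minus strand): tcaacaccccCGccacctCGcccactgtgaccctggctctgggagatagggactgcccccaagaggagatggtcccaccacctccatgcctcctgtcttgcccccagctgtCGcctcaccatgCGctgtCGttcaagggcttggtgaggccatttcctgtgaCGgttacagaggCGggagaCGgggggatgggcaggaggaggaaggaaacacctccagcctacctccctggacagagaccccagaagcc
PTPN7 chr1:202159455-202159704 (minus strand): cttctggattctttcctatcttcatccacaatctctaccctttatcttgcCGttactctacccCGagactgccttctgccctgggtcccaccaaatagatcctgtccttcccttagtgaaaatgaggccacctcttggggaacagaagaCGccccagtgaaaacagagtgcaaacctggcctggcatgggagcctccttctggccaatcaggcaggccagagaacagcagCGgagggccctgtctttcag
PTPRZ1 chr7:121872911-121873160 (plus strand): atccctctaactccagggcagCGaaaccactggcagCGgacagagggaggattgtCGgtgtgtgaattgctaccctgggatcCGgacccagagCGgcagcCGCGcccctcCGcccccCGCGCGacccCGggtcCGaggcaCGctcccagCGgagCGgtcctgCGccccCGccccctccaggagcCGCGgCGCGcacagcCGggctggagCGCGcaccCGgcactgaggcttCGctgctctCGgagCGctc
The PTPN7 windows held 7, 8 and 4 CG in the order shown, and 43.7%, 45.9% and 34.3% of 35116 windows of this length in the table hold as many or fewer. The PTPRZ1 window held 29, and 87.6% of windows hold as many or fewer. Of the other members that passed the test, PTPN18 had 29, PTPRF 28 and PTPN13 18 CG in such a window, and PTPRB had no entry. The median was 16 CG over the 51 windows of 32 members and 11 CG over all windows.

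PTPN7 had 23, 34 and 26 counts in vitamin C replicates 1, 2 and 3 and 11, 8 and 3 counts in control replicates 1, 2 and 3. Scaled by TMM, these were 0.900, 1.03 and 1.24 CPM with vitamin C and 0.264, 0.298 and 0.186 CPM in control wells. Every vitamin C well exceeded every control well by more than the whole range within either group. The mean was 1.06 ± 0.172 CPM in vitamin C wells and 0.249 ± 0.0576 CPM in control wells (SD, n = 3 each), a log2 fold change of 2.01 with a 95% confidence interval of 1.27 to 2.74 (edgeR adjusted p = 0.0019). The interval is wide because the difference rests on 83 counts over the vitamin C libraries and 22 over the control libraries. Among 16353 genes, PTPN7 ranked 26 by the size of its rise and 409 by p. Its control levels lay below the filter on low counts, so it was tested only because of its vitamin C wells. The p and the ranks are thus not independent of the rise. Requiring 10 or more counts of each library removes the gene.

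The genes beside PTPN7 that could be tested did not pass the test. Of 19 annotated genes in the table within 200 kb, PTPN7 included, 6 had enough counts, and none of the other 5 was called by edgeR or had an unadjusted p under 0.05. UBE2T, a ubiquitin-conjugating enzyme, had a log2 fold change of 0.01, TIMM17A 0.09, PPP1R12B -0.08 and RNPEP -0.09, with edgeR adjusted p from 0.36 to 0.97. PTPRVP, a phosphatase pseudogene next to PTPN7, had 3 counts in the vitamin C libraries and 2 in the control libraries. LGR6, which was not tested either, had 11, 14 and 7 counts with vitamin C and 8, 6 and 3 in control wells. Its mean was 0.397 CPM with vitamin C and 0.200 CPM in control wells, without overlap. The other genes that were not tested had at most 10 counts over the libraries of either group.

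PTPN7 is known as a blood cell gene, so the other blood cell phosphatases and a list of 19 blood cell markers were set beside it. PTPRC (CD45), which marks nucleated blood cells, had 14, 18 and 13 counts with vitamin C and 21, 32 and 14 in control wells, with overlapping levels and a log2 fold change of -0.53 (95% confidence interval -1.32 to 0.25). PTPN6 (SHP1), which restrains signaling in blood cells, had 20, 22 and 18 counts with vitamin C and 26, 17 and 3 in control wells. At 0.770 ± 0.0959 CPM with vitamin C and 0.481 ± 0.256 CPM in control wells (SD, n = 3 each) its levels did not overlap, but the log2 fold change of 0.53 did not pass the test (edgeR adjusted p = 0.40). PTPN22, a restraint on T cell receptor signaling, had 30, 18 and 18 counts with vitamin C and 50, 39 and 20 in control wells, and its log2 fold change of -0.61 did not pass either (adjusted p = 0.22 from the same test). These members thus pointed to both sides of 0, with intervals that were wider than 1 on the log2 scale. Of the blood markers 4 of 19 could be tested, with LAPTM5 higher (log2 fold change 0.98) and LYZ lower (-0.50). This is 50% of those tested, against 11.2% of all genes. A gene on the other strand overlaps 34% of the LYZ exon bases, which makes its reads uncertain without strand. The summed level of the 19 markers was 15.9 to 17.1 CPM with vitamin C and 13.6 to 14.6 CPM in control wells. The markers that were not tested had at most 17 counts over the 3 libraries of either group and lay to both sides. MS4A1, a B cell marker, had 17 counts with vitamin C and 6 in control wells, and CD14, of monocytes, had 8 with vitamin C and 4 in control wells. CD247, a T cell receptor chain, had 7 counts with vitamin C and 13 in control wells, and CD3E had 1 with vitamin C and 4 in control wells. CD52, CD53 and TYROBP had at most 1 count in either group. FCER1G, which was tested, had 57 counts with vitamin C and 40 in control wells (log2 fold change 0.60, edgeR adjusted p = 0.44). The part of blood cells in the PTPN7 values was not tested.

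Of the other members that bind MAP kinases through the same kind of docking motif as PTPN7, none was called. PTPRR, a receptor-type member, had a log2 fold change of -0.13 (95% confidence interval -0.91 to 0.64). PTPN5, known from neurons, was not tested and had 2, 0 and 0 counts with vitamin C and 3, 2 and 1 in control wells. The MAP kinases themselves and the dual-specificity phosphatases that also act on them formed a list of 20 genes, of which 19 were tested. Of these 1 was called (5.26%, against 11.2% of all genes): DUSP5, an inducible nuclear phosphatase of ERK. It had 8.06, 8.85 and 9.02 CPM with vitamin C and 5.79, 7.26 and 5.63 CPM in control wells, a log2 fold change of 0.47 (edgeR adjusted p = 0.023). MAPK14 (p38 alpha) had a log2 fold change of 0.07, and DUSP6, another ERK phosphatase, of -0.07. A gene on the other strand, AC024909.2, overlaps 40.5% of the DUSP6 exon bases, which makes its reads uncertain without strand. No gene of the list was called without control replicate 1, control replicate 3 or vitamin C replicate 2, and 2 were called without vitamin C replicate 3.

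PTPN18 (chromosome 2, 130356007 to 130375409, plus strand) encodes a PEST-type phosphatase known to act on the receptor kinase HER2. It had 22.3, 22.4 and 23.2 CPM in vitamin C replicates 1, 2 and 3 and 17.7, 17.2 and 18.4 CPM in control replicates 1, 2 and 3. The wells of each group lay close together, and the groups did not overlap. The difference was 0.35 on the log2 scale, with a standard error of 0.0693 (edgeR adjusted p = 0.0051). The counts were 569, 736 and 486 with vitamin C and 735, 462 and 297 in control wells, far more than for PTPN7. The other PEST-type members did not pass the test. PTPN12 (PTP-PEST), which acts on focal adhesion proteins such as BCAR1, had 59.3, 52.3 and 49.4 CPM with vitamin C and 63.8, 62.6 and 54.7 CPM in control wells, with overlap between the groups (log2 fold change -0.17, edgeR adjusted p = 0.16, unadjusted 0.038). Its counts were 1516, 1720 and 1035 with vitamin C and 2655, 1680 and 884 in control wells.

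PTPN13 (chromosome 4, 86594315 to 86815171, plus strand) encodes a large phosphatase with a FERM and several PDZ domains that binds the death receptor FAS. It had 148, 152 and 151 CPM in vitamin C replicates 1, 2 and 3 and 130, 133 and 140 CPM in control replicates 1, 2 and 3. The groups did not overlap, and control replicate 3 was the control well nearest to the vitamin C wells. The counts were 3770, 5014 and 3161 with vitamin C and 5411, 3562 and 2257 in control wells. The log2 fold change was 0.17 (95% confidence interval 0.07 to 0.27, edgeR adjusted p = 0.035). The call was lost with upper quartile scaling and when any control well, vitamin C replicate 1 or vitamin C replicate 2 was left out, with an adjusted p of up to 0.15. MAPK10, which overlaps 3.28% of the PTPN13 exon bases on the other strand, had 38 counts in the vitamin C and 37 in the control libraries.

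The other FERM-domain members did not pass the test, and their difference from PTPN13 was not tested. PTPN14, known as a partner of the growth regulator YAP, had 164, 158 and 139 CPM with vitamin C and 171, 181 and 160 CPM in control wells, with overlap between the groups and a log2 fold change of -0.15 (edgeR adjusted p = 0.15, unadjusted 0.031). It was -0.08 without vitamin C replicate 3. The counts behind these levels were 4180, 5211 and 2903 with vitamin C and 7136, 4857 and 2583 in control wells. PTPN3 and PTPN4, a pair of related FERM and PDZ phosphatases, had log2 fold changes of -0.08 and 0.10, and PTPN21 had -0.04. The 95% confidence interval for PTPN4, -0.04 to 0.24, included the value of PTPN13.

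PTPRZ1 (ENSG00000106278, chromosome 7, 121873089 to 122062036, plus strand) had the smallest p of the family. It had 2223, 2747 and 1593 counts in vitamin C replicates 1, 2 and 3 and 5349, 3322 and 2090 counts in control replicates 1, 2 and 3. Scaled, these were 87.0, 83.5 and 76.0 CPM with vitamin C and 128, 124 and 129 CPM in control wells. The groups lay far apart, and vitamin C replicate 3 was the lowest well. The mean was 82.2 ± 5.59 CPM in vitamin C wells and 127 ± 3.03 CPM in control wells (SD, n = 3 each). This is -0.63 on the log2 scale with a standard error of 0.0557 (edgeR adjusted p = 1.1e-05). It ranked 48 of 16353 genes by p. No other annotated gene overlaps its exons. PTPRG, the other member with a carbonic anhydrase-like extracellular domain, had 157, 159 and 142 CPM with vitamin C and 156, 164 and 153 CPM in control wells. The 95% confidence interval of its log2 fold change, -0.16 to 0.07, lay apart from that of PTPRZ1, -0.75 to -0.51. PTPRG-AS1 overlaps 8.25% of the PTPRG exon bases on the other strand. This antisense gene had 167 counts in the vitamin C and 239 in the control libraries.

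The ligands of these receptors were on a list of 28 ligands and binding partners of receptor-type members. Pleiotrophin (PTN), which binds PTPRZ1, had 1.14, 0.821 and 1.15 CPM with vitamin C and 1.80, 1.49 and 1.98 CPM in control wells, without overlap but short of the threshold (log2 fold change -0.77, edgeR adjusted p = 0.058). MDK, a related growth factor that binds the same receptor, had a log2 fold change of 0.07. Of the list, 18 were tested and 3 were called (16.7%, against 11.2% of all genes). SLITRK2, a neuronal membrane protein of the family that binds PTPRD and PTPRS, had 5.44, 5.44 and 5.35 CPM with vitamin C and 9.70, 10.8 and 8.79 CPM in control wells (log2 fold change -0.86, edgeR adjusted p = 2.2e-04). The study had picked SLITRK2 from these libraries and also reported it as lower by qRT-PCR, with a smaller change than in its own RNA-seq results. SLITRK6, of the same family, rose with 0.42, and CNTN5, a contactin, with 1.52 on 35 counts in the vitamin C and 13 in the control libraries. CNTN5 passed the filter on low counts only through its vitamin C wells, where it was high. Its call was lost in 7 of the 11 alternatives that gave it an adjusted p. The number called from the list was 1 when control replicate 2, control replicate 3, vitamin C replicate 1 or vitamin C replicate 2 was left out, and 5 without vitamin C replicate 3.

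PTPRF (LAR, chromosome 1, 43525187 to 43623666, plus strand), an adhesion receptor that binds liprins and localizes to cell contacts, had 39.8, 36.9 and 35.8 CPM in vitamin C replicates 1, 2 and 3 and 49.0, 50.4 and 45.6 CPM in control replicates 1, 2 and 3. All vitamin C wells were below all control wells. The difference was -0.37 on the log2 scale, with a standard error of 0.0639 (edgeR adjusted p = 0.0022). The counts were 1017, 1214 and 750 with vitamin C and 2041, 1353 and 737 in control wells. The other LAR-type members, which serve as receptors in synapse formation, did not pass the test. PTPRS had 100, 106 and 99.2 CPM with vitamin C and 109, 109 and 110 CPM in control wells, so that its groups did not overlap (log2 fold change -0.10, edgeR adjusted p = 0.20). PTPRD, at a mean of 1.21 CPM with vitamin C and 1.44 CPM in control wells, had a log2 fold change of -0.24 (95% confidence interval -0.80 to 0.32).

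PTPRB (VE-PTP, chromosome 12, 70515866 to 70637440, minus strand), known from endothelium where it acts on the receptor TIE2 and on VE-cadherin, had 18.5, 20.6 and 18.6 CPM with vitamin C and 23.0, 23.6 and 22.1 CPM in control wells. The counts were 472, 676 and 390 with vitamin C and 957, 635 and 357 in control wells. The levels did not overlap, and the log2 fold change was -0.25 (95% confidence interval -0.41 to -0.10, edgeR adjusted p = 0.041). The call was lost when any control well, vitamin C replicate 1 or vitamin C replicate 3 was left out, with DESeq2, with library size alone and without a filter on low counts, and the adjusted p then reached up to 0.14. Antisense non-coding genes overlap 8.97% of its exon bases, and their reads cannot be told apart from those of PTPRB without strand. Of 8 endothelial markers 5 were tested and 3 were called (60%, against 11.2% of all genes). These 3 were higher with vitamin C: PECAM1 (log2 fold change 1.60), TIE1 (1.24) and KDR (0.87). All 5 had log2 fold changes above 0, and for 4 of them every vitamin C well was above every control well. The summed level of the 8 markers was 17.5 to 19.3 CPM with vitamin C and 9.16 to 9.78 CPM in control wells. Among the markers that were not tested, CLDN5 had 0 counts in every library. CDH5 had 13 counts in the vitamin C and 4 in the control libraries. The part of other cells in these values was not tested. The other members of the PTPRB group, PTPRJ, PTPRH and PTPRO, had log2 fold changes of -0.06, -0.06 and -0.22 and did not pass the test.

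**Figure D3:**
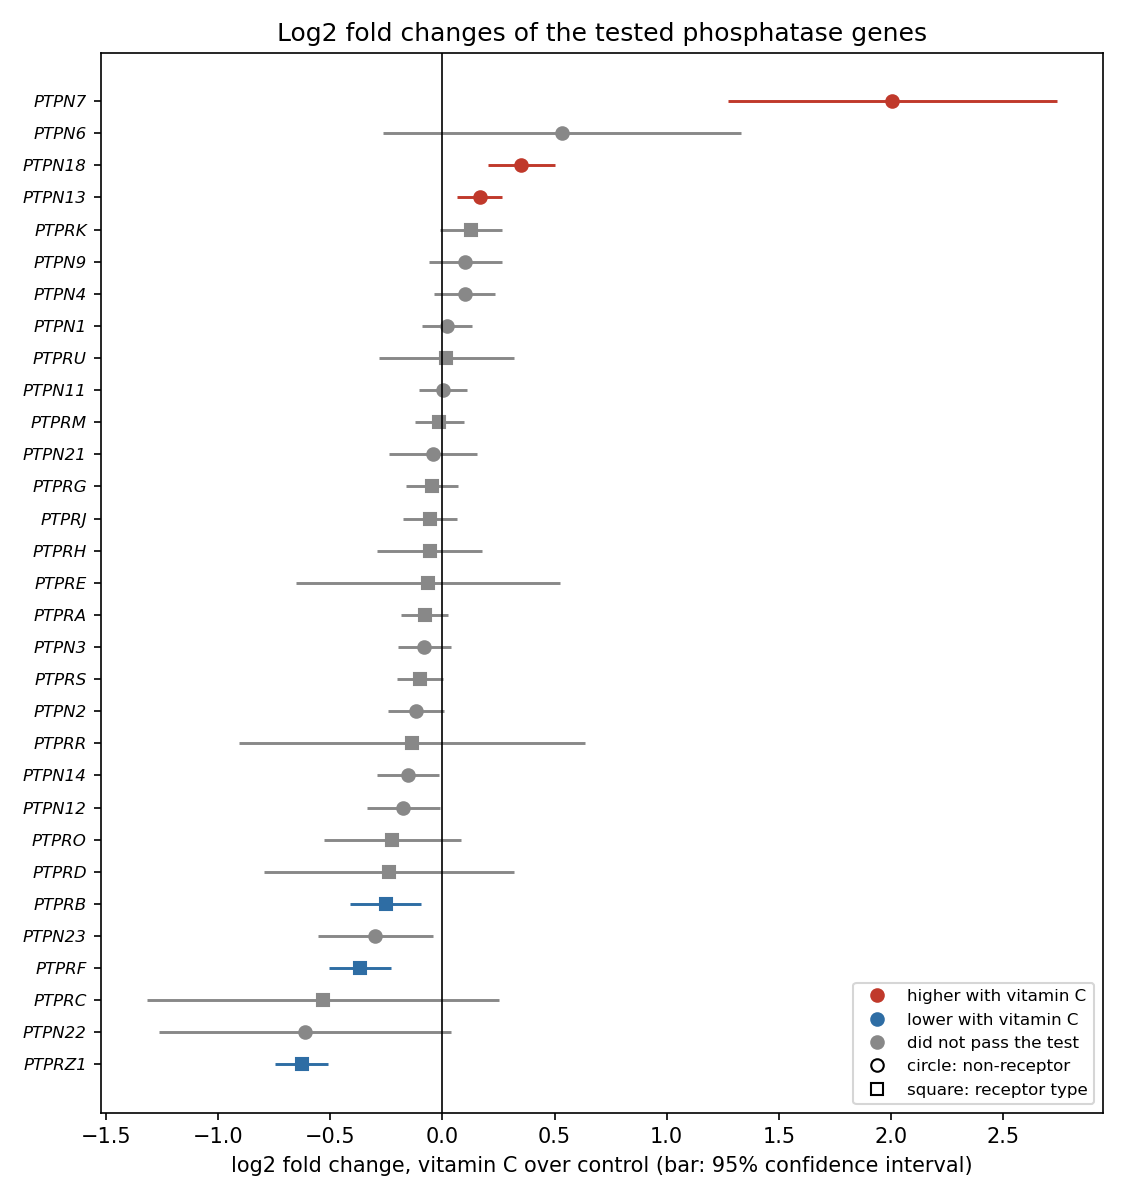
Change with vitamin C as log2 of the fold over control (x axis) with its 95% confidence interval (bars) for the 31 tested phosphatase genes (y axis), non-receptor enzymes as circles and receptor-type enzymes as squares. Red genes passed the test as higher and blue genes as lower with vitamin C. PTPN7 lies at 2.01 and PTPRZ1 at -0.63, and the genes with few counts, such as PTPRC and PTPRR, have wide bars.

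By kind, 3 of 15 tested non-receptor genes were higher and none was lower. Of 16 tested receptor-type genes, 3 were lower and none was higher. Among all genes tested, 6.09% were called higher and 5.09% lower. At shares this low, the lack of calls in the other direction among 15 or 16 genes tells little. The split also rests in part on PTPN13 and PTPRB, which lost their calls when any control well was left out. The median log2 fold change was 0.0018 over the non-receptor genes and -0.09 over the receptor-type genes, against -0.0037 over all 16353 genes. Whether the kinds differ was not tested. Over all 31 genes, 21 had a log2 fold change below 0 and 10 above, with a median of -0.07. The levels of 13 tested members did not overlap between the groups, with 5 above and 8 below in vitamin C wells, against 30.6% of all genes tested (15.6% above and 14.9% below). Besides the genes that passed the test, these were PTPN6 and PTPRK, above, and PTPN2, PTPN22, PTPN23, PTPRO and PTPRS, below. Summed over the 36 genes, the level was 2014 to 2057 CPM in vitamin C wells and 2090 to 2169 CPM in control wells, which did not overlap. Without PTPRZ1 the sums were 1938 to 1970 CPM in vitamin C wells and 1961 to 2045 CPM in control wells, and the groups overlapped.

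The 25 tested members that did not pass had log2 fold changes between -0.61 and 0.53 (edgeR adjusted p from 0.13 to 0.99). For 17 of them the 95% confidence interval stayed within 0.5 on either side of 0. PTPN11 was among these, with 425, 424 and 472 CPM in vitamin C wells and 444, 449 and 426 CPM in control wells and an interval of -0.11 to 0.11. PTPN1 had an interval of -0.09 to 0.13, and PTPRM, an adhesion receptor that binds its own kind on neighbouring cells, of -0.12 to 0.09. PTPN2 (TC-PTP), which acts on JAK and STAT proteins, had 60.9, 61.8 and 61.2 CPM with vitamin C and 63.8, 64.6 and 72.0 CPM in control wells, with an interval of -0.24 to 0.01. PTPN23 (HD-PTP), a protein of endosomal sorting, had 10.9, 11.4 and 7.97 CPM with vitamin C and 12.9, 12.9 and 11.7 CPM in control wells. Its log2 fold change of -0.30 did not pass the test (edgeR adjusted p = 0.13, unadjusted 0.025), and it was -0.16 without vitamin C replicate 3. Its counts were 278, 376 and 167 with vitamin C and 536, 345 and 189 in control wells. PTPRK, related to PTPRM, had 47.0, 46.4 and 48.6 CPM with vitamin C and 45.4, 44.5 and 39.3 CPM in control wells (log2 fold change 0.13, adjusted p = 0.24 from the same test). For PTPN6, PTPN22, PTPN23, PTPRC, PTPRD, PTPRE, PTPRO and PTPRR the interval reached beyond 0.5 on at least 1 side.

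The 5 members that were not tested had few counts in every library. PTPRN and PTPRN2, proteins of secretory granules that lack phosphatase activity toward tyrosine, were among them. PTPRN had 6, 7 and 4 counts with vitamin C and 10, 11 and 6 in control wells, and PTPRN2 had 1, 2 and 4 counts with vitamin C and 3, 8 and 0 in control wells. PTPN20 had 1, 3 and 3 counts with vitamin C and 3, 1 and 2 in control wells. An annotated pseudogene copy, PTPN20CP, may make its reads uncertain, but how alike the sequences are was not measured. PTPRT, a neural adhesion receptor, had 0, 1 and 2 counts with vitamin C and 3, 4 and 0 in control wells. PTPRN, at a mean of 0.213 CPM with vitamin C and 0.340 CPM in control wells, had no overlap between the groups. Without a filter on low counts, none of these 5 genes was called. With so few counts, the lack of calls tells little about them.

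Kinases and adaptors that work with these phosphatases were called at a share near that of all genes, 8.33% of 12 tested kinases and 10.5% of 19 tested adaptors, against 11.2% of all genes. Among the SRC, JAK and related kinases LYN was called. LYN, a SRC-family kinase, had 46.7, 40.0 and 36.6 CPM with vitamin C and 51.0, 52.4 and 52.4 CPM in control wells (log2 fold change -0.33, edgeR adjusted p = 0.014). No gene of this list was called without control replicate 2, control replicate 3 or vitamin C replicate 2. Among the adaptors and docking proteins of PTPN11 and related enzymes, PECAM1, which recruits PTPN11 and PTPN6, rose to 3.41, 3.28 and 3.49 CPM with vitamin C, against 1.08, 1.19 and 1.05 CPM in control wells (log2 fold change 1.60, edgeR adjusted p = 1.0e-04). IRS2, an insulin receptor substrate, fell to 121, 107 and 91.0 CPM, against 143, 146 and 142 CPM in control wells (log2 fold change -0.43, edgeR adjusted p = 0.0027). The number called from this list was 4 without vitamin C replicate 3. The medians of the kinase and the adaptor list were 0.02 and 0.05 on the log2 scale.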

How the data were processed

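The authors deposited counts of reads per gene, without normalization, for 3 vitamin C and 3 control wells. Paired-end reads of ribosome-depleted RNA were aligned with STAR and counted with HTSeq. The paper names GENCODE v19. The notes of the submitters on processing list hg38 as the build and, as tools, STAR, Trim Galore and CASAVA 1.4. No source used here gives the strand setting of the counting. Symbols, positions and exon lengths were taken from GENCODE 29, which holds 57055 of the 60675 identifiers. The test was run with edgeR 4.0.16 under R 4.3.3 (filter on expression, TMM, quasi-likelihood test, group as the only term) and adjusted over all 16353 genes tested. CPM and RPKM were computed here from the deposited counts, and RPKM divides CPM by the union of exons. Standard errors and 95% confidence intervals come from the quasi-likelihood F statistic.

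Alternatives were RLE, upper quartile and library size scaling, other filters on low counts, DESeq2 1.42.0, limma-voom (limma 3.58.1), leaving out each library, a block for the replicate number, and an adjusted p under 0.01. The steps were tested on simulated data. The members and gene lists were chosen with earlier results of these data known. Counts in every library were given for PTPN7 and for members with an unadjusted p under 0.05, and up to 4 called genes were named from each other list. Further members and partners with their values were named after these were seen. The single-sample tables repeat the series table. BaySeq was not run, and protein sequences were not used here. A few genes of the lists and of the PTPN7 neighbourhood are not reported here.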

Additional observations from a re-analysis of the deposited data

How the results depend on the processing

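PTPN18, PTPRF and PTPRZ1 were called under every alternative run, and PTPN7 under each that tested it, whereas PTPN13 and PTPRB lost their calls as described. PTPN13 and PTPRB were also lost at an adjusted p under 0.01. Between 4 and 6 phosphatase genes were called under all alternatives and 4 or 5 with a library left out. Over all genes, 795 were called at an adjusted p under 0.01, 1699 with DESeq2 and 964 to 2095 with a library left out. An adjusted p under 0.01 left 0 calls among the MAP kinase and dual-specificity genes, 0 among the kinases, 1 among the ligands and 0 among the other tyrosine phosphatases. DESeq2 left 1 ligand, and 1 other tyrosine phosphatase was called without a filter on low counts. With a library left out, calls numbered 0 to 2 for the MAP kinase list, 0 to 1 for the kinases, 2 to 4 for the adaptors, 1 to 5 for the ligands and 0 to 3 for the other tyrosine phosphatases. UBE2T, close to 0, turned to -0.004 with upper quartile scaling and ran from -0.0438 to 0.0739 with a library left out. The split of all calls was 996 higher and 833 lower, 892 and 963 with upper quartile scaling, and 1101 and 752 with library size alone. Same-numbered wells correlated with 0.123, -0.024 and 0.091 in their deviations, so the numbers were not taken as pairs. With the replicate block 1913 genes were called, 6 of them phosphatases, and not every well correlated best with its own number. Depth limits the genes under about 1 CPM, where intervals were wide.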

Other observations

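Tyrosine phosphatases outside the classical family formed a list of 29 genes, of which 26 were tested. Of these, 3 rose with vitamin C and none fell: EPM2A (laforin), a phosphatase of glycogen metabolism, with 14.2, 14.2 and 13.9 CPM in vitamin C wells and 11.7, 11.2 and 10.5 CPM in control wells (log2 fold change 0.33, edgeR adjusted p = 0.020), CDC14A, a dual-specificity phosphatase, with a log2 fold change of 0.28 (adjusted p = 0.041 from the same test), and EYA4, a transcriptional coactivator with phosphatase activity, with 0.15 (adjusted p = 0.049). This is 11.5% of the list, against 11.2% of all genes tested. The number called was 1 without control replicate 1, and no gene was called when control replicate 2, control replicate 3, vitamin C replicate 1 or vitamin C replicate 2 was left out.

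Among 7 fibroblast markers, 5 were tested and 3 rose, COL3A1, LUM and PDGFRB, the last with a log2 fold change of 1.60. This is 60% of those tested, against 11.2% of all genes. The summed level of the 7 markers was 93.8 to 110 CPM in vitamin C wells and 54.5 to 61.1 CPM in control wells. Among 10 neuronal markers 3 were tested and SCG2 fell with -0.24 (33.3%). Among 7 epithelial markers 3 were tested and KRT18 fell with -0.21 (33.3%). Of the 11 melanocyte markers 5 rose and 1 fell (54.5%).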
